A study of Mus musculus with 19 samples.

Results

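The strong H3K27me3 tiles of control ESCs were 20920 stretches of 2 kb, chosen by their ChIP-seq values from the 1327469 tiles of the genome. A tile was taken where it lay on chromosomes 1 to 19, where its Input value was at least -1.5, where H3K27me3 in the day 4 control library exceeded Input by at least 2 on the log2 scale, and where H3K9me3 in the day 4 control library exceeded Input by less than 1. Input is chromatin sequenced without immunoprecipitation, and values were log2 of observed over expected reads. The first 2 conditions left 1103606 eligible tiles, of which the strong H3K27me3 tiles were 1.9% (41.84 Mb of sequence). Since the day 4 control libraries and Input chose the tiles, their levels are given only as a description, and differences were tested at day 8 alone.

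The cells were mouse embryonic stem cells (ESCs), of background E14 in the labels but of strain C57BL/6 in the study's methods, grown in medium with serum and LIF. In the conditional knockout (cKO), labeled Dnmt1 KO, Cre recombination induced by 4OHT had deleted *Dnmt1*, and cells labeled Wildtype served as control. The 19 libraries comprised 1 Input and 18 ChIP libraries of H3K27me3, H3K9me2 and H3K9me3, each mark with 1 library per genotype from day 4 and 2 per genotype from day 8. The labels do not say whether the day 8 libraries came from separate cultures, so p-values measure only the spread between these libraries, which may be technical. The depth of the ChIP libraries was 14627174 to 26181489 reads in tiles, apart from the day 8 H3K9me3 cKO library of replicate 1 with 5669098. In the tile that holds the deleted part of *Dnmt1*, which is not one of the strong tiles and had been picked from its values, the 6 day 8 control libraries held 49 reads and the 6 cKO libraries held 1.

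H3K27me3 is written by Polycomb repressive complex 2 and is bound by Polycomb repressive complex 1. In ESCs it covers CpG islands, stretches dense in CG dinucleotides that mostly escape DNA methylation, at genes of transcription factors and signals that are silent until differentiation. H3K9me2 and H3K9me3 mark other silent chromatin, the latter over many transposable elements, and DNMT1 copies CpG methylation onto the new DNA strand after replication.

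Sequences from 5 of the tiles show what they look like, and each is the stretch of 300 bases in the tile with the most CpG sites outside annotated UTRs (NCBIM37, plus strand, CpG sites in capitals). The first lies in an exon of *Hoxc11*, in the tile with the most CpG sites of the longest unbroken row of strong tiles (chr15:102785308-102785607). The second lies in an exon of *Scarf2*, in a tile that ranked among the strongest at day 4 (chr16:17802940-17803239). The third lies in an exon of *Zbtb10*, in the tile with the largest fall at day 8 (chr3:9251145-9251444). The fourth lies between genes in the tile with the next largest fall (chr6:90937674-90937973), and the fifth in an intron of *Speg*, in 1 of the 2 tiles that rose (chr1:75401139-75401438).
Hoxc11 exon: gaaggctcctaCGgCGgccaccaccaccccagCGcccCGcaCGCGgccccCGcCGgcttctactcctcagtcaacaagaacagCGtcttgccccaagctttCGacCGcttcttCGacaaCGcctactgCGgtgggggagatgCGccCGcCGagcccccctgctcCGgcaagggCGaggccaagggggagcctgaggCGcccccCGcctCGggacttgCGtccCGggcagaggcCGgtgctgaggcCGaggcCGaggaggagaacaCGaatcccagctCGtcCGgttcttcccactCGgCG
Scarf2 exon: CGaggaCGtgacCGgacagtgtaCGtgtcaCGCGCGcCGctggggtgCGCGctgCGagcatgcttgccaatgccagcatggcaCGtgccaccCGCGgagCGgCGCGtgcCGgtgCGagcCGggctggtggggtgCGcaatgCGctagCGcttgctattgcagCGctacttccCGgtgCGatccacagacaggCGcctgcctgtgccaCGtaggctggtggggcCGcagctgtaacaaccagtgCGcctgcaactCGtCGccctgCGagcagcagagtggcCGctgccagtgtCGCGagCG
Zbtb10 exon: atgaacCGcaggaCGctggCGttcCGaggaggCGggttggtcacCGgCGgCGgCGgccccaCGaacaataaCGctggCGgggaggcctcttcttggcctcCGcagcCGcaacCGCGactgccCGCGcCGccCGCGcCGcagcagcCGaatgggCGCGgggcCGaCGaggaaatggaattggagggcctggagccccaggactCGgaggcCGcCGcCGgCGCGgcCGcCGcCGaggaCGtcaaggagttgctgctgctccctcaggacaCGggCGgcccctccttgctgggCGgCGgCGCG
Intergenic tile: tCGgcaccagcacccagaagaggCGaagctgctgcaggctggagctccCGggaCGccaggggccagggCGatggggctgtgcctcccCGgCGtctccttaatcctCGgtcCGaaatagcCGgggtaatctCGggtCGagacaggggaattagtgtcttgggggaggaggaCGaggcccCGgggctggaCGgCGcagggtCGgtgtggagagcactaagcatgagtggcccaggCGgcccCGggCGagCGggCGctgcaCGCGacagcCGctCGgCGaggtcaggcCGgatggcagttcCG
Speg intron: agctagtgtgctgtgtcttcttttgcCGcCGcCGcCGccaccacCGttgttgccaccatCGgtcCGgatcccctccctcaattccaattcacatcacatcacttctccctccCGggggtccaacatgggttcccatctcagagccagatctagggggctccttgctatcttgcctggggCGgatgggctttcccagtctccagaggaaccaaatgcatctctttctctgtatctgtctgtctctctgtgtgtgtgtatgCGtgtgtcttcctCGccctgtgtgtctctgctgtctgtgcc
These stretches held 32, 37, 43, 29 and 11 CpG sites, in the order printed. Their whole tiles held 108, 119, 259, 46 and 52, so the intergenic tile that fell and the *Speg* tile that rose had the fewest.

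The strong tiles were most common at genes and in CpG-dense sequence. A start of a protein-coding gene lay in 3236 of them (15.5%), against 1.71% of eligible tiles. Another 24.9% overlapped an exon without a gene start (eligible tiles 13.0%), 17.7% lay within introns (27.6%) and 41.9% between genes (57.7%). The median strong tile held 31 CpG sites, against 14 in eligible tiles. CpG-rich tiles, defined as those with at least 80 CpG sites, made up 14.6% of the strong tiles and 0.767% of eligible tiles. Read the other way, 36.1% of the 8460 eligible CpG-rich tiles were strong H3K27me3 tiles, and this share was 28.6% for those with a gene start and 52.3% for those without one. By contrast, 2.00% of the 4006 eligible gene starts with under 20 CpG sites were strong tiles. Chromosome 11 had the highest share of strong tiles (3.50% of its eligible tiles) and chromosome 16 the lowest (1.24%).

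Adjacent strong tiles were joined into 10615 runs, and 6185 of these were single tiles. Only 684 runs had 5 or more tiles, yet they held 24.1% of the strong tiles. The longest run covered 136 kb on chromosome 15 (102738001 to 102874000) and overlapped *Hoxc4*, *Hoxc5*, *Hoxc6*, *Hoxc8*, *Hoxc9*, *Hoxc10*, *Hoxc11*, *Hoxc12* and *Hoxc13*. The next covered 100 kb of chromosome 6 (52110001 to 52210000) from *Hoxa2* to *Hoxa13*. Hox genes encode homeodomain factors that set position along the body axis. Of the 10 longest runs, 6 overlapped Hox genes, including 62 kb with *Evx2* and *Hoxd13* to *Hoxd3* and 52 kb with *Hoxb3*, *Hoxb2* and *Hoxb1*. Others covered *Nfix* and *Hand2* (a regulator of heart and limb formation). Another spanned 68 kb on chromosome 7 (86638001 to 86706000) without overlapping a coding gene, and the nearest, *Polg*, was 26753 bases away.

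By gene family, strong tiles sat at the starts of most developmental regulators. The families were listed with earlier results of these data known, and the counts describe them without a test. Counts are of annotated gene entries, and *Hoxa3* is entered more than once with the same start tile. A strong tile held the start of 36 of 37 Hox genes, 91 of 97 other homeobox genes, 13 of 16 *Sox* genes, 12 of 15 T-box genes, 4 of 5 *Gata* genes, 26 of 35 lineage factors of the bHLH class and 22 of 37 *Fox* genes, counting genes with an eligible start tile. Among secreted signals these were 17 of 18 Wnt ligands, 10 of 18 Fgf ligands and 9 of 19 Bmp and Gdf ligands. Over all coding genes it was 3342 of 20087 (16.6%). Genes of ribosomal proteins, which every cell uses, had 1 of 74, and olfactory receptor genes, which are silent in ESCs but lie in CpG-poor sequence, had 4 of 1061. Subunits of the Polycomb complexes had 4 of 27 and germline genes known to be silenced by DNA methylation 6 of 13. Pluripotency factors, the markers of ESCs, had 4 of 13.

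**Figure D1:**
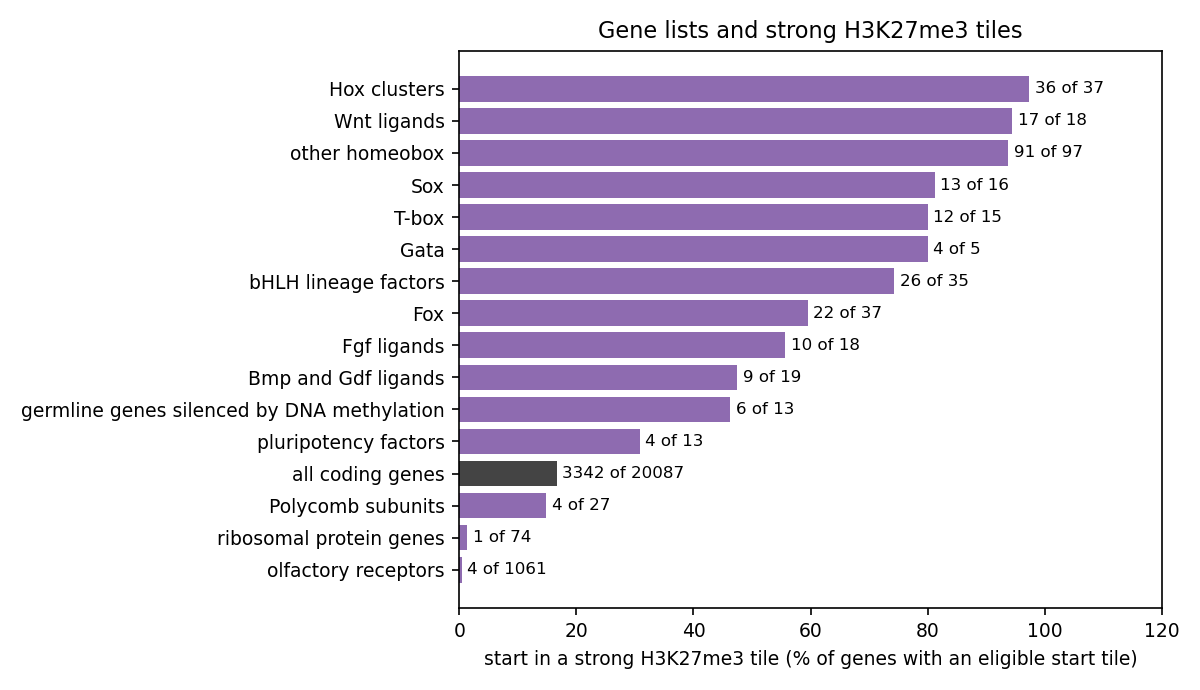
Share of genes in each family whose start lay in a strong H3K27me3 tile, as a percentage of the genes whose start tile was eligible, with the counts beside each bar. Hox genes (36 of 37), Wnt ligands (17 of 18) and other homeobox genes (91 of 97) stand at the top. All coding genes (dark bar) lie at 16.6%, and olfactory receptor genes (4 of 1061) at the bottom. Counts are of annotated gene entries, and *Hoxa3* is entered more than once.

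The choosing values ran from 2.00 to 6.02 above Input, with a median of 2.58. The strong tiles held a median of 94 reads in the day 4 control library, against 15 in eligible tiles, and 12 against 16 Input reads, so the rule also drew tiles with few Input reads. Fewer than 10 Input reads lay in 4651 strong tiles. The 5 strongest tiles at least 10 kb apart overlapped *Hoxa9*, *Scarf2*, *Hoxb8* with *Hoxb7*, and *Unc45b*, or lay 2539 bases from *Pax2*. Each had 7 Input reads, the lowest number the rule allows, and 504 to 548 reads in the day 4 control library. Just inside the threshold (2.0 to 2.1), 2575 tiles had median day 8 control levels of 1.41 and 1.26, and just outside it (1.9 to 2.0), 2947 tiles had 1.30 and 1.17.

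Libraries that were not used to choose the tiles held the mark in the same places. At day 8, the strong tiles took 14.3% and 10.99% of all H3K27me3 reads in the control libraries and 9.76% and 6.70% in the cKO libraries, while the day 4 cKO library had 10.3% and Input 1.40%. The 2 groups of day 8 did not overlap, with both controls above both cKO libraries. The median level in a strong tile was 2.33 and 2.02 in the day 8 controls and 1.95 and 1.51 in the cKO, against -0.64 to -0.43 over eligible tiles in the same libraries. In the day 8 controls 87.5% and 81.1% of the strong tiles again exceeded Input by at least 2, and in the cKO 78.4% and 57.0%. These shares use the Input values that also entered the rule.

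**Figure D2:**
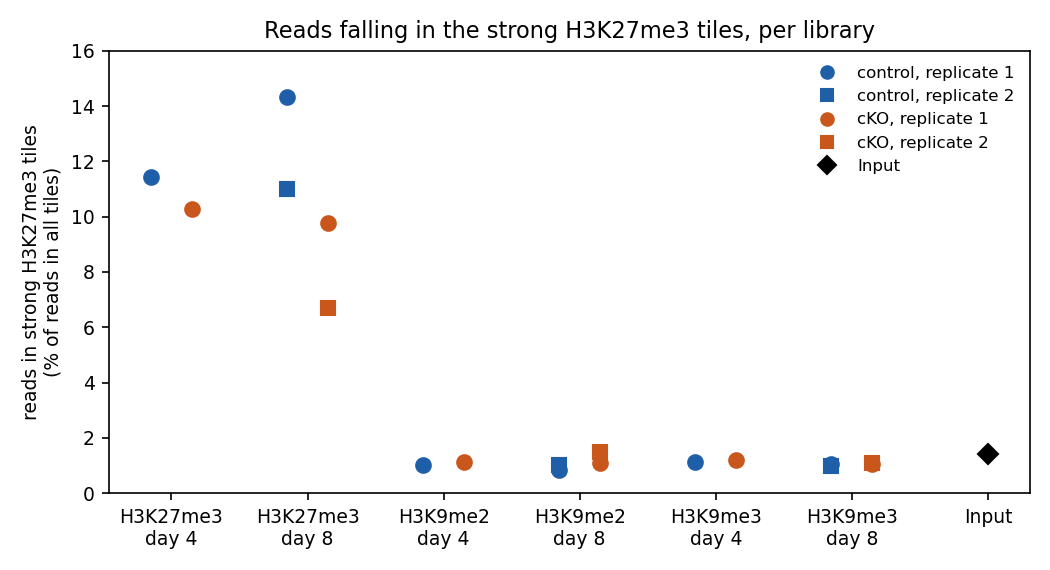
Percentage of the reads of each library that fell in the strong H3K27me3 tiles. Circles and squares are replicates 1 and 2, blue is control, orange is cKO and the black diamond is Input. H3K27me3 libraries lie between 6.70% and 14.3%, with both day 8 controls above both day 8 cKO libraries, and libraries of the other marks between 0.837% and 1.5%, of which the day 8 H3K9me2 cKO library of replicate 2 (1.5%) lies above Input at 1.40% and the rest below.

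Day 8 H3K27me3 was higher within the runs than beside them. The ends of the runs were set by the day 4 values and Input, so a step at the edge follows in part from the rule. Mean Input was -0.62 inside and -0.28 at 2 kb. In the day 8 controls the mean level was 2.39 and 2.1 in the strong tiles, 0.97 and 0.85 in the first eligible tile outside a run, and 0.04 and 0.03 at 10 kb. In the cKO the same positions had 1.99 and 1.51, then 0.89 and 0.64, then 0.10 and -0.0045. The difference between cKO and control was largest inside the runs. Its median was -0.43 and -0.57 inside, -0.06 and -0.17 at 2 kb, and 0.04 and -0.05 at 4 kb.

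**Figure D3:**
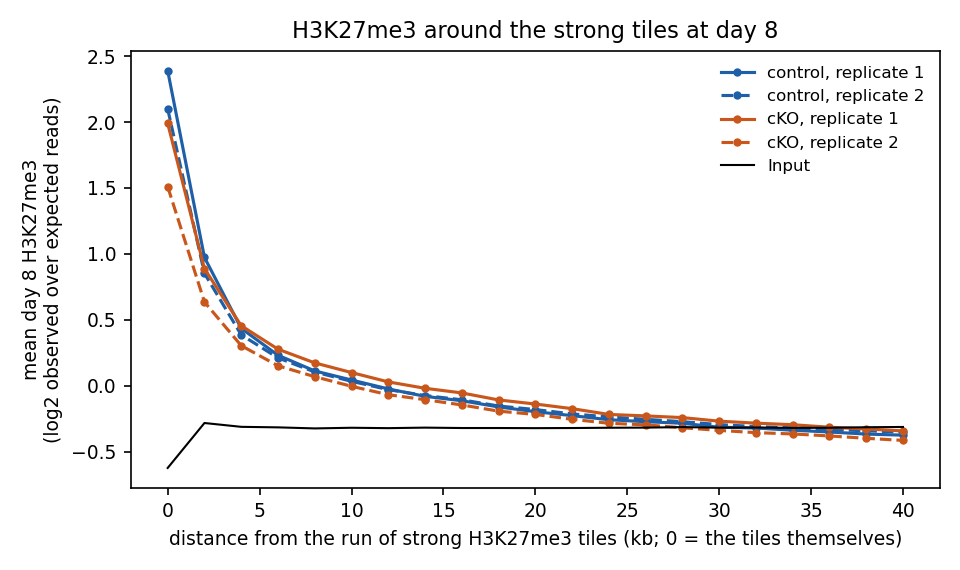
Mean day 8 H3K27me3 level (log2 observed over expected reads) in the strong tiles (0 kb) and in eligible tiles outside them, by distance from the end of the run. Blue lines are controls, orange lines cKO, solid and dashed lines replicates 1 and 2, and the black line Input. The cKO lines start at 1.99 and 1.51 and the control lines at 2.39 and 2.1, and the 4 lines lie between -0.0045 and 0.10 at 10 kb.

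The effect of *Dnmt1* loss on the strong tiles was examined in the 2 pairs of day 8 libraries, control and cKO of the same number. H3K27me3 was lower in cKO in the median strong tile, by -0.43 in pair 1 and -0.57 in pair 2 (mean -0.50 ± 0.10 on the log2 scale, SD, n = 2), which is 0.706 of the control level. In other eligible tiles the median difference was 0.04 and 0.06. Of the strong tiles, 70.9% were lower in both pairs, against 24.1% of other eligible tiles. A difference of at least 2-fold in both pairs was seen downward in 2358 strong tiles (11.3%; 1.55% of all eligible tiles) and upward in 8 (0.995% of all eligible tiles). Bulk chromatin cannot tell fewer cells that carry the mark from less of the mark in each cell. The values are relative to all reads of a library. A weaker enrichment of a whole library or more reads elsewhere therefore cannot be told apart from less of the mark. The controls also differed from each other, with 14.31% and 10.99% of their reads in strong tiles, against 9.756% and 6.697% in the cKO libraries. The catalogue numbers of the H3K27me3 antibody differed within each pair in the labels (39155 for control and 39156 for cKO in pair 1, 39157 and 39158 in pair 2), while the study's methods list 39155 alone. Which is right is not known here, and if the labels are, antibody and genotype cannot be told apart. An exact permutation test of 2 libraries against 2 cannot go below a two-sided p of 0.333, and no test of these medians was run.

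Single tiles were tested with limma over all 1255417 tiles with a read. H3K27me3 fell in 973 strong tiles and rose in 2 (Benjamini-Hochberg adjusted p under 0.05, two-sided). Over all tiles tested, 0.182% fell and 0.0624% rose. Strong tiles had a median of 84.8 reads per day 8 library and a median standard error of 0.32, against 15.2 reads and 0.43 in other eligible tiles, so a change of a given size was easier to call in the strong tiles. The calls rest on the variance being allowed to depend on the level. With 1 common variance there were 0 calls. At an unadjusted p under 0.05 that fit had 3968 strong tiles lower and 67 higher, against 48814 and 47397 of all tiles tested. Limma-voom on recovered reads called 1642 strong tiles lower and 6 higher, against 4085 and 1323 of all tiles. Leaving out control replicate 1, cKO replicate 1 or cKO replicate 2 each moved the count of falls beyond 1.5-fold. Such fits leave 1 library in a group.

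The falls were most frequent in CpG-rich tiles. The tiles that fell had a median of 85 CpG sites and 40.1% held a gene start, against 30 sites and 14.3% in those not called. By class, H3K27me3 fell in 529 of 3056 CpG-rich strong tiles (17.3%), 227 of 5007 with 40 to 79 sites (4.53%), 124 of 8177 with 20 to 39 sites (1.52%) and 93 of 4680 with under 20 sites (1.99%). The median change was -0.87 and -1.13 at 80 to 119 sites and -1.11 and -1.48 at 120 or more, but -0.17 and -0.32 at 20 to 39 sites. Over the strong tiles the correlation of the mean change with the number of CpG sites was -0.482 (Pearson's r, n = 20920 tiles of the same 4 libraries, a description only). The relation was not even, since the 579 tiles with under 10 CpG sites changed by -0.57 and -0.70.

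Tiles outside the strong set were also lower when they were CpG-rich. The 5404 other eligible tiles with at least 80 CpG sites carried 7.5 reads in the median, and at 80 to 119 sites their median change was -0.69 and -0.89. Of these 5404 tiles, 371 fell (6.87%) and 11 rose. As a share of all reads, the summed H3K27me3 reads of CpG-rich tiles differed by log2 ratios of -0.93 and -1.22 in strong tiles and of -0.80 and -1.0 in the others. With 20 to 39 sites, in contrast, the median was lower in strong tiles (-0.17 and -0.32) and above 0 in others (0.23 and 0.13). Once each library was corrected for GC content, the median change of CpG-rich strong tiles was -0.76 instead of -1.09, and that of all strong tiles -0.53. The part that base composition had in these differences was not tested beyond this.

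**Figure D4:**
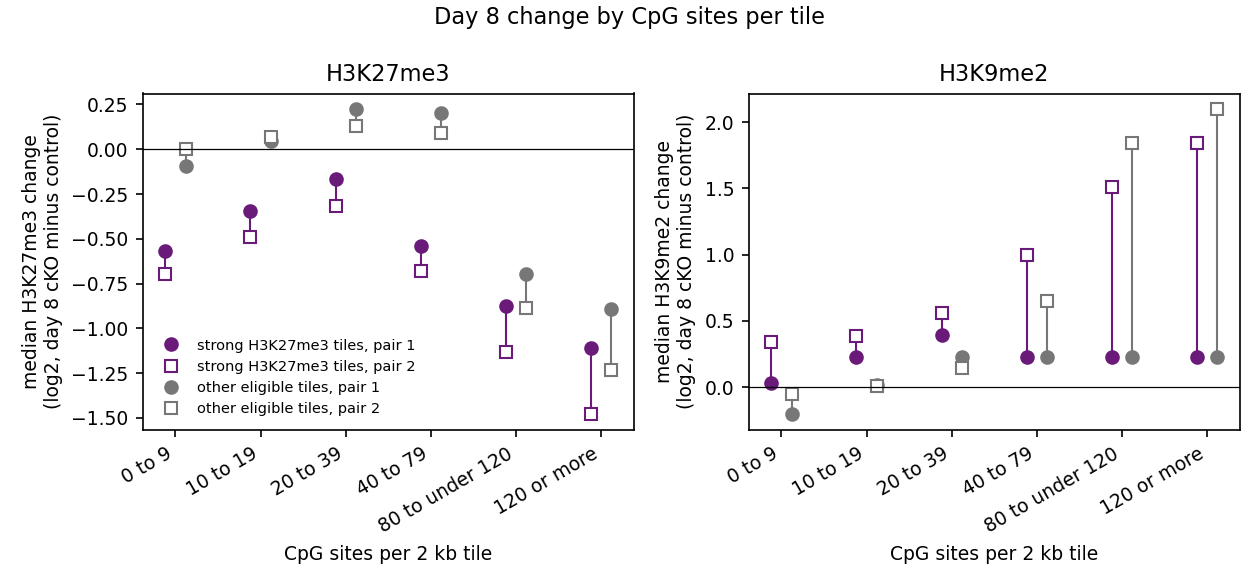
Median change between day 8 cKO and control in H3K27me3 (left) and H3K9me2 (right) by the number of CpG sites per 2 kb tile. Purple is the strong H3K27me3 tiles and gray the other eligible tiles, filled circles are pair 1, open squares pair 2, and a bar joins the pairs. H3K27me3 lies near -1.11 and -1.48 in strong tiles with 120 or more sites. H3K9me2 lies at 0.23 in pair 1, at a median of 2 reads per tile, but 1.84 in pair 2 in the same tiles.

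The change was also described by the day 4 control value that chose the tiles, with no test. In the fourth of the strong tiles with the lowest day 4 control values the median change was -0.10 and -0.23, and in the fourth with the highest values it was -0.76 and -1.0. Tiles that stood alone changed by -0.11 and -0.23 and those in runs of 10 or more by -0.65 and -0.90. The share at least 2-fold lower in both pairs was 5.04% in the fourth with the lowest values and 20.3% in that with the highest. The share called by limma was not highest there, with 198 tiles (3.78%) in the fourth with the highest values and 332 (6.35%) in the fourth below it. The median standard error was 0.47 in the former and 0.34 in the latter although the former held more reads (185 against 98.8).

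The largest falls were not at the strongest tiles. At the start of *Zbtb10* on chromosome 3 (9250001 to 9252000) the day 8 controls held 86 and 97 reads and the cKO libraries 10 and 5. The change was -3.79 (SE 0.35, limma adjusted p = 5.91e-07), and cKO was lower in both pairs. An intergenic tile of chromosome 6 (90936001 to 90938000), 25062 bases from *Nup210*, held 99 and 81 reads in control and 8 and 8 in cKO. Its change of -3.58 (SE 0.31, limma adjusted p = 2.32e-07) was nearly equal in the 2 pairs (-3.59 and -3.57).

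Exon tiles of *Siah2* (a ubiquitin ligase), *Ptch1* (the receptor of Hedgehog ligands) and *Pbx3* (a homeodomain partner of Hox proteins) followed, with changes of -3.52, -3.50 and -3.39. *Siah2* held 126 and 109 reads in control and 17 and 7 in cKO, *Ptch1* 102 and 55 against 10 and 5, and *Pbx3* 91 and 76 against 12 and 6. Start tiles of *Chsy1* (a chondroitin synthase), *Trio* and *Zfp362* completed the 8 largest falls, with changes of -3.43, -3.34 and -3.30. These 8 tiles were picked for their large called falls, so that their control and cKO libraries do not overlap is no further result. All 8 kept a negative change after the GC correction, but the calls of *Zbtb10*, *Ptch1*, *Chsy1*, *Pbx3* and *Trio* were lost, with changes of -2.19, -2.31, -1.96, -1.92 and -1.74. Their day 4 control values were 2.42 to 3.17 above Input, around the median of the strong tiles (2.58) and far from the highest (6.02).

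The 2 rises were in tiles of *Speg*, which encodes a kinase of muscle, and *Igsf21*, of the immunoglobulin superfamily. *Speg* (chromosome 1, 75400001 to 75402000) held 45 and 32 reads in control and 119 and 106 in cKO, a change of 1.47 (SE 0.30, limma adjusted p = 0.0206). *Igsf21* (chromosome 4, 139590001 to 139592000) held 29 and 44 against 84 and 99, a change of 1.26 (SE 0.29, limma adjusted p = 0.0467). Both calls were lost without either control library and after centering the libraries on their medians, with changes of 1.39 and 1.18 in the latter. That of *Igsf21* was also lost after the GC correction.

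**Figure D5:**
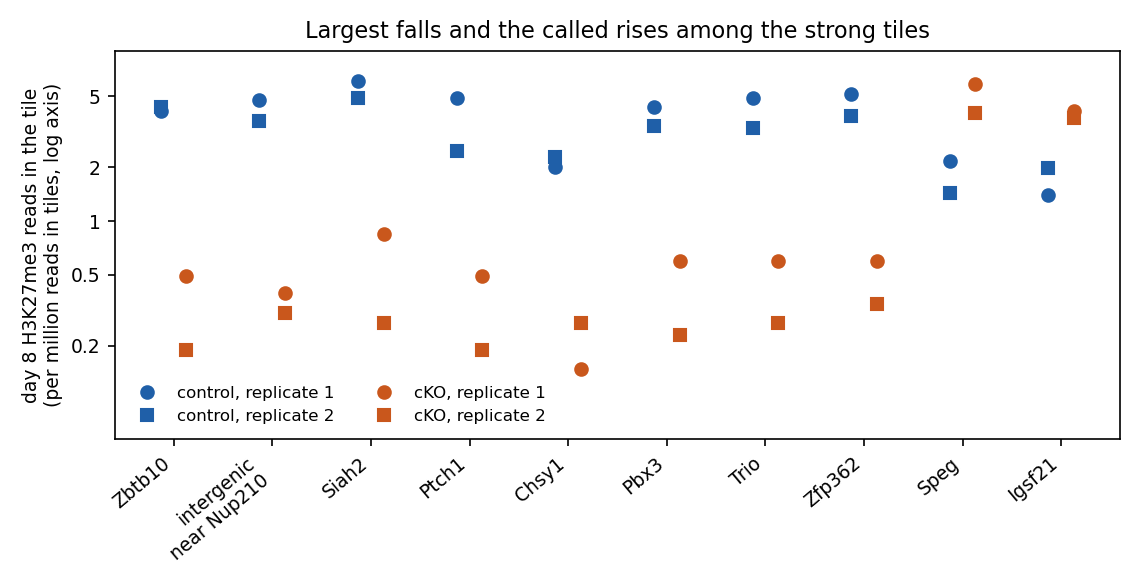
Day 8 H3K27me3 reads scaled to the depth of each library (RPM, log axis) in the 8 strong tiles with the largest falls and the 2 that rose. Blue is control, orange cKO, circles replicate 1 and squares replicate 2. In the first 8 tiles controls lie between 2.02 and 6.06 and cKO between 0.149 and 0.843, and in *Speg* and *Igsf21* cKO lies above control.

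The Hox clusters differed from these tiles in having many more reads. The *Hoxc* run held 26242 and 22034 reads in the day 8 controls and 15672 and 13500 in the cKO, with a mean change over its 68 tiles of -0.63 and -0.89. The *Hoxa* run held 23071 and 18421 against 13612 and 10759, with -0.67 and -0.97. Both cKO libraries thus lay below both controls. The first *Hoxd* run had -0.71 and -1.10 and the *Hoxb3* to *Hoxb1* run -0.65 and -0.77. In the *Hoxc* run 64 of 68 tiles were lower in both pairs and in the *Hoxa* run 50 of 50, but limma called 0 tiles in any of the 10 longest runs (limma-voom called 1). Their median standard errors were 0.49 to 0.80, and changes of this size were not called there by this test. With the replicate number in the fit (a replicate block), 45 of 68 tiles of the *Hoxc* run and 36 of 50 of the *Hoxa* run were called lower. That fit called 36.7% of all strong tiles lower, and the calls thus depend on whether the libraries are taken as paired. The smallest of the 10 differences was that of the run with *Ttll6* and *Hoxb13* (-0.19 and -0.42). The strongest tile, in *Hoxa9* (chromosome 6, 52176001 to 52178000), held 703 and 522 reads in control and 348 and 285 in cKO, a change of -1.04 (SE 1.10, limma adjusted p = 0.814).

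The start tiles of the other developmental families had like differences, and few were called without a replicate block. Over the 3236 strong tiles with a gene start the median change was -0.79 and -0.98, and 390 fell (12.1%) while 0 rose (limma; limma-voom called 663 lower and 0 higher). Among homeobox genes outside the Hox clusters it was -0.84 and -1.14 over 88 tiles, of which 86 were lower in both pairs. Limma called 0 of them, limma-voom 4 and the fit with a replicate block 73. The latter called 64.7% of all strong tiles with a gene start lower. *Lhx2*, a homeobox gene of forebrain and eye, held 624 and 458 reads in control and 336 and 228 in cKO.

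Among *Sox* genes 2 of 13 start tiles fell. The family counts here and for the ligands stand beside 390 of 3236 (12.1%) over all strong tiles with a gene start, and no family was tested against that share. *Sox21*, a regulator of neural differentiation, held 197 and 220 reads in control and 54 and 48 in cKO (-2.13, SE 0.34, limma adjusted p = 0.0014). *Sox13* fell by 1.58 (limma adjusted p = 0.019). In the *Fox* family *Foxj2* and *Foxq1* fell (2 of 22 tiles), and in the T-box family *Tbx3* and *Tbx20* (2 of 12). Among *Gata* and bHLH factors 0 of 4 and 0 of 26 fell (0 and 3 by limma-voom, 4 and 18 with a replicate block). *Foxq1* changed by -2.25, *Foxj2* by -2.11 and *Tbx20* by -1.69, and these 3 were named because they were called. Other members of these families were lower but not called. *Foxo6* had 418 and 351 reads in control and 152 and 106 in cKO, *Gata3*, of T cell and kidney development, 351 and 247 against 176 and 155, and *Tal1*, of blood formation, 484 and 349 against 273 and 192. In each of them both cKO libraries lay below both controls.

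Among the ligands, *Wnt4* (259 and 174 reads in control, 80 and 56 in cKO) and *Wnt9a* (153 and 156 against 59 and 56) fell, 2 of 17 start tiles. *Fgf18* fell by 2.05 (1 of 10 Fgf tiles, limma adjusted p = 0.00123) and *Bmp4* by 1.36 (1 of 9 Bmp and Gdf tiles, limma adjusted p = 0.0198). Not every ligand gene was lower: the start tile of *Wnt8b*, with 18 CpG sites, held 74 and 74 reads in control and 81 and 86 in cKO, a difference of 0.08. The change had opposite signs in its 2 pairs (0.17 and -0.02). The same held for *Tbx4*, a T-box gene of the hindlimb, with 154 and 127 reads in control and 168 and 112 in cKO. *Wnt3* and *Wnt5a*, the Wnt genes with the most strong tiles, held 364 and 240 against 239 and 172 and 273 and 241 against 161 and 147, and were not called.

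Among pluripotency factors, the start tiles of *Klf4*, *Klf2* and *Tbx3* fell, 3 of the 4 in the set. They held 192, 160 and 139 CpG sites, and of all strong tiles with 120 or more sites 287 of 1027 fell (27.9%). *Klf4* held 41 and 113 reads in the controls and 15 and 17 in the cKO (-2.19, SE 0.33, limma adjusted p = 0.000803), so the 2 controls differed more from each other than in most tiles named here. *Klf2* held 87 and 75 against 38 and 19 (-1.68, limma adjusted p = 0.0116). *Tbx3*, which is also counted in the T-box family, held 54 and 70 against 28 and 24 (-1.34, limma adjusted p = 0.0307). The fourth, *Prdm14*, held 279 and 260 against 150 and 114 and was not called (limma adjusted p = 0.433). Among Polycomb subunits, all 4 start tiles were lower in both pairs and 0 were called (0 by limma-voom, 4 with a replicate block). *Bmi1*, of Polycomb repressive complex 1, held 201 and 170 reads in control and 116 and 79 in cKO.

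Germline genes silenced by DNA methylation were the list with the smallest difference among those with at least 5 start tiles, -0.19 and -0.36 in the median over 6 tiles. Of these, 0 were called (0 by limma-voom and 0 with a replicate block). *Ddx4*, which encodes a germ cell RNA helicase, held 233 and 137 reads in control and 155 and 125 in cKO. *Sycp1*, of the meiotic synaptonemal complex, held 199 and 160 against 178 and 131, and *Hormad1*, a meiotic chromosome protein, 110 and 84 against 107 and 77. In all 3 the groups overlapped. The 4 olfactory receptor tiles had a median of 0.51 and 0.32, 1 of them was lower in both pairs, and 0 were called (0 by limma-voom and 0 with a replicate block). *Olfr222* held 58 and 47 reads in control against 91 and 85 in cKO, but *Olfr1419* held 116 and 93 against 89 and 66.

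H3K9me2 was scarce in the strong tiles. Its median level at day 8 was -1.62 and -1.40 in control and -1.21 and -0.56 in cKO, against -0.22 to -0.18 in eligible tiles, and Input itself was -0.63. A strong tile held 7 and 6 reads in the controls and 8 and 15 in the cKO in the median. The median change was 0.28 in pair 1 and 0.74 in pair 2 (mean 0.51 ± 0.33, SD, n = 2), against 0.00 and 0.03 in other eligible tiles. At least 2-fold higher in both pairs were 1979 strong tiles (9.46%; 2.11% of all eligible tiles) and 6 were at least 2-fold lower (0.299% of all eligible tiles). Limma called 0 strong tiles in either direction (0% of all tiles tested in both). At an unadjusted p under 0.05, 2270 strong tiles were higher and 36 lower, against 43603 and 37249 of all 1254661 tiles tested. Limma-voom called 3 strong tiles higher and 0 lower, against 9 and 3 of all tiles.

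The pairs disagreed where CpG sites were dense. In strong tiles with 120 or more CpG sites the H3K9me2 change was 0.23 in pair 1 and 1.84 in pair 2, and in other eligible tiles of that class 0.23 and 2.1. The share of CpG-rich tiles at least 2-fold higher in both pairs was likewise 18.3% in strong tiles and 18.8% in the others. The higher values of pair 2 thus went with the number of CpG sites inside and outside the strong tiles. The cKO library of replicate 2 had a median of 9 reads in CpG-rich strong tiles against 2 or 3 in the other day 8 libraries. After GC correction the median change over all strong tiles was 0.21 and the count of 2-fold higher tiles was 805.

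The tiles with the largest H3K9me2 differences held few reads. A tile 454 bases from *Pacsin1* held 0 and 0 reads in control and 6 and 20 in cKO. A tile 3252 bases from *Egr3* held 1 and 0 against 8 and 13. In the other direction, a tile 4832 bases from *Nr2f2* held 6 and 4 reads in control and 1 and 2 in cKO. None of these passed the limma test (adjusted p = 0.761 to 0.766). Both marks differed at least 2-fold, H3K27me3 down and H3K9me2 up in both pairs, in 340 strong tiles (1.63%) and in 991 other eligible tiles (0.0915%). The 340 are 14.4% of the strong tiles with lower H3K27me3 and 17.2% of those with higher H3K9me2. In other eligible tiles the matching shares were 6.72% and 4.64%. These shares were not split by CpG sites. Over strong tiles the mean change correlated with CpG sites at -0.482 for H3K27me3 and 0.255 for H3K9me2 (-0.0313 in pair 1, 0.37 in pair 2). The changes of the 2 marks correlated at 0.117 in pair 1 and -0.302 in pair 2.

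H3K9me3, which the rule kept low at day 4, stayed low at day 8. The median level was -1.20 and -1.24 in control and -1.47 and -1.08 in cKO, and at most 0.301% of the strong tiles exceeded Input by 2 in any day 8 library. The median change was -0.08 and 0.19 (mean 0.05 ± 0.19, SD, n = 2), so its sign differed between the pairs. In other eligible tiles the median was -0.0808 and -0.00745, so the value of pair 1 was the same there. Pair 1 rests on the shallow library, with a median of 2 reads per strong tile. At least 2-fold lower in both pairs were 465 strong tiles (2.22%; 2.13% of all eligible tiles) and higher 444 (2.12%; 1.06% of all eligible tiles).

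Limma called 1 strong tile lower in H3K9me3 and 0 higher, against 0.00812% and 0.000398% of all tiles tested. At an unadjusted p under 0.05, 261 of the 20920 strong tiles were lower and 761 higher, against 51575 and 46977 of all 1256638 tiles tested. Limma-voom called 3 and 3 strong tiles, against 266 and 219 of all tiles. The tile that fell lies in an intron of *Grb10*, an imprinted gene of growth factor signaling (chromosome 11, 11928001 to 11930000). It held 79 and 71 reads in control and 5 and 15 in cKO, a change of -2.25 (SE 0.33, limma adjusted p = 0.00369), and the call was lost after GC correction, without a trend and without control replicate 1. Fits without 1 of the 2 cKO libraries leave a single library in that group, the shallow one where replicate 2 is left out. Their counts are not read as results about the strong tiles. Higher but not called were tiles of *Dlk1* (1 and 1 reads in control, 4 and 8 in cKO) and *Trp53i13* (2 and 1 against 5 and 7), numbers too small for a statement on either.

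At day 4, compared with the library that chose the tiles, H3K27me3 of the cKO differed by -0.13 in the median strong tile, H3K9me2 by 0.19 and H3K9me3 by 0.12. Since the rule used the control libraries of that day, these are descriptions without a test.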

How the data were processed

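The authors trimmed reads with Trim Galore, aligned them with Bowtie2 (2.2.9 per the labels) to NCBIM37 and discarded alignments of mapping quality below 20. Removal of duplicate reads is not given in the sources used here. The deposited table gives a log2 ratio for each 2 kb tile and library, of the observed reads to those expected if reads were spread evenly over the genome, with Input not subtracted. The methods give tiles of 1 kb, but those of the table are 2 kb. They also speak of a single ChIP measurement, while day 8 has replicates 1 and 2 in the labels.

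All low values of the 19 libraries stepped in whole reads within 0.1, so reads were recovered, and empty tiles carried the value of 0.9 read. Depth was 5669098 to 26181489 reads per library, and differences within a tile carry counting error accordingly. Position, CpG sites and gene starts came from the NCBIM37 genome and its gene annotation (22380 protein-coding genes), whose lengths matched the table on 21 chromosomes.

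Day 8 cKO was compared with control per mark with limma 3.58.1 (R 4.3.3). The fit used lmFit and eBayes with a trend and no replicate block. Benjamini-Hochberg ran over all tiles with a read in any of the 4 libraries, at a threshold of 0.05. A run on simulated reads checked only that changes put in were recovered and that a GC slope was removed. It drew all libraries from the same profile without a replicate effect, so it does not measure false calls in these data. The deposited values are log2, so no count model was the main test. The trend lets the variance depend on the mean level. Alternatives were fits without a trend, limma-voom on the recovered reads, a replicate block, centering, GC correction (bins 0.02 wide), a minimum of 10 reads, each library left out, and other thresholds of the rule.

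Named were the 10 longest runs of adjacent tiles, the 5 strongest tiles, up to 4 genes per list with the most strong tiles, and per mark and direction the largest called changes (8 falls and 5 rises for H3K27me3, 3 and 3 for the others; 2-fold changes in both pairs where none was called), at least 10 kb apart. List genes outside this rule were named because they were called. The tiles, lists and rules were chosen with earlier results of these data known. Some items that this rule selects are not reported here.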

Additional observations from a re-analysis of the deposited data

How the results depend on the processing

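The number of strong tiles was 43469 with an H3K27me3 threshold of 1.5, 6692 with 3 and 7403 with an Input minimum of -0.5. Under these settings the share with a gene start was 10.0%, 24.2% and 16.4%, the share of CpG-rich tiles 7.98% and 32.1% with the first 2, and the median H3K27me3 change -0.24, -0.84 and -0.66. The H3K27me3 median was -0.63 with summed reads, and after GC correction it was -0.76 in CpG-rich strong tiles, a subset examined after seeing the data. The H3K9me3 median changed sign with a threshold of 3 (-0.0251), after GC correction (-0.0424) and without replicate 2 (-0.0808), and was 0.19 without replicate 1.

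Strong tiles called lower and higher in H3K27me3 numbered 0 and 0 without a trend, 1642 and 6 with limma-voom, 642 and 8 after GC correction, 1365 and 6 with a minimum of 10 reads, and 676 and 0 after centering. Leaving out 1 library gave 339 to 2329 lower and 0 to 22 higher. For H3K9me2 limma-voom and the minimum of 10 reads each gave 3 higher, and leaving out 1 library 0 to 1. For H3K9me3 these were 3 lower and 3 higher with limma-voom, 4 and 7 with the minimum, 0 lower without a trend and after GC correction, and 0 to 241 lower and 0 to 334 higher with 1 library left out. The cause was not tested for any of these.

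With the replicate block 7684 strong tiles (36.7%) were lower and 242 higher in H3K27me3, against 15925 and 11720 of all 1255417 tiles tested. In H3K9me3 0 strong tiles were lower, against 7 of all tiles tested, so the *Grb10* call was lost. The H3K27me3 calls included 45 of 68 tiles of the *Hoxc* run, 36 of 50 of the *Hoxa* run and 73 of 88 start tiles of other homeobox genes, and 15.7% of the fourth with the lowest day 4 control values and 69.8% of that with the highest. The deviations of libraries of the same number correlated at 0.447 over strong tiles and 0.0795 over eligible tiles in H3K27me3, and below 0.1 in the other marks. With 2 pairs and no statement of shared cultures, the libraries were taken to share only a number.

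At 4-fold in both pairs there were 93 lower and 0 higher strong tiles in H3K27me3, 0 and 159 in H3K9me2, and 5 and 6 in H3K9me3. After centering 5 were at least 2-fold higher in H3K27me3. After GC correction 29 were higher in H3K27me3, and 115 lower and 805 higher in H3K9me2. Of the remaining alternatives, 58 kept the result within a set limit. This was the spread of the pairs for medians and 1.5 times the count for counts. For shares of tiles it was a binomial interval, which takes adjacent tiles as independent. Low read numbers in the strong tiles limit H3K9me2 and H3K9me3 most, with medians of 2 to 15 reads per strong tile.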
